A study of Arabidopsis with 8 samples.

Results

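The chloroplast genome of *Arabidopsis* encodes core subunits of the photosystems, of the cytochrome b6f complex and of the ATP synthase. The microarray signals for the RNAs of these genes are described here. Members were the probe sets whose only annotated gene is plastid-encoded and carries a symbol that starts with psa, psb, pet or atp, together with *rbcL*, *cemA*, *ccsA*, *ycf3* and *ycf4*. The rule named 37 genes, each with 1 probe set, out of 69 plastid genes with 1 gene per probe set and 22746 probe sets in all. They comprise 5 photosystem I subunits, 2 photosystem I assembly factors, 15 photosystem II genes, 6 cytochrome b6f subunits, 6 ATP synthase subunits, and 1 gene each for the large subunit of Rubisco (*rbcL*), for heme attachment to c-type cytochromes (*ccsA*) and for a protein of the chloroplast envelope (*cemA*). The plastid *ndh* genes, which encode the NADH dehydrogenase-like complex, are not among them.

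Leaf RNA was hybridized to 8 Affymetrix ATH1 arrays, on which sets of short probes measure each transcript. The 4 groups, with 2 arrays each, were WT control, WT drought, nNOS control and nNOS drought. WT was the ecotype Col-0, and nNOS plants carry in the same ecotype a rat gene for neuronal nitric oxide synthase, driven by the CaMV 35S promoter, which is active in most cells of the plant. Control plants were kept watered, and drought plants were left without water from an age of 2 weeks. The labels put the leaf harvest at 14 d, from no fewer than 20 seedlings of each genotype, and name line nNOS-25 for the RNA, whereas the methods of the study give a shorter drought and an equal mix of RNA from the lines nNOS-2 and nNOS-25. The methods describe the 2 arrays of a group as replicate leaf samples and do not say whether their plants were grown separately. The error behind each p-value is the spread between such replicates, pooled over the 4 groups and moderated across probe sets, and it covers no more than the variation between these samples. The genotype labels were not checked against the transgene, which is not an *Arabidopsis* gene.

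Each thylakoid complex is assembled from plastid-encoded and nuclear-encoded subunits. Many plastid genes are transcribed together as long precursor RNAs, which are cut and trimmed into smaller RNAs whose stability depends on nuclear-encoded binding proteins, so the RNAs of neighbouring genes need not change together. Most plastid mRNAs lack the long poly(A) tails of nuclear mRNAs, and the labelling kit used here primes RNA from the poly(A) tail. In whole leaves, fewer chloroplast-bearing cells, fewer plastid genomes per cell and less RNA per genome cannot be told apart. How much of each plastid RNA was labelled was not measured, so a signal need not follow the RNA level.

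The nNOS control arrays stood apart from the others in the spiked controls. The mean log2 signal of the 24 poly-A control probe sets was 8.98 and 9.40 on the nNOS control arrays and 6.04 to 6.88 on the other 6. These controls were thus 2.31 higher on the log2 scale in nNOS control than in WT control, and 24 of 24 passed both thresholds used below. The probe set for 25S ribosomal RNA was 1.10 higher and the 18 hybridization controls were 0.95 higher in the same comparison. In WT drought versus WT control, the poly-A controls differed by -0.81 and 8 of 24 passed both thresholds. In nNOS drought versus WT drought they differed by 0.50 and 0 passed. The part of all these shifts in the results below was not tested. The comparisons that use the nNOS control arrays are marked as such, but the others are not free of control shifts. Among markers, RCA (Rubisco activase, a leaf gene) read 12.8 to 13.1 over the 8 arrays, the root marker PYK10 read 7.40 to 7.92, and the anther genes ATA27 and A9 read 1.72 to 3.56. Only 1 of 5 listed leaf markers, 1 of 4 root markers and 2 of 4 anther markers had an annotated probe set.

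The first comparison asked how nNOS plants differed from WT plants when both were watered. In nNOS control, 14 of the 37 genes were lower and 10 were higher than in WT control at an adjusted p of at most 0.05 (limma, Benjamini-Hochberg over all probe sets), and 13 did not pass. Over all 22746 probe sets, 17.9% were lower and 13% were higher at this threshold. With a further limit of 1 on the log2 scale in size, which defines a call below, 6 members were called lower and 4 higher, against 1.18% and 0.972% of all probe sets. The members therefore differed in both directions, over a range from -1.76 for *atpA* to 1.55 for *psaJ*, and their median was -0.10, with a median of 0.01 over all probe sets. On the arrays themselves, both nNOS control values were below both WT control values for 17 members and above them for 11, whereas 32.1% and 30.4% of all probe sets were separated in these directions. The count of 10 higher members fell to 6 without nNOS control replicate 2 or without WT control replicate 1, while 6 members were called lower whichever array was left out. Over all probe sets, 221 were called higher and 269 lower with the signals as deposited, and 353 and 139 after cyclic loess normalization, whereas the members gave 5 and 6 after it.

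**Figure D1:**
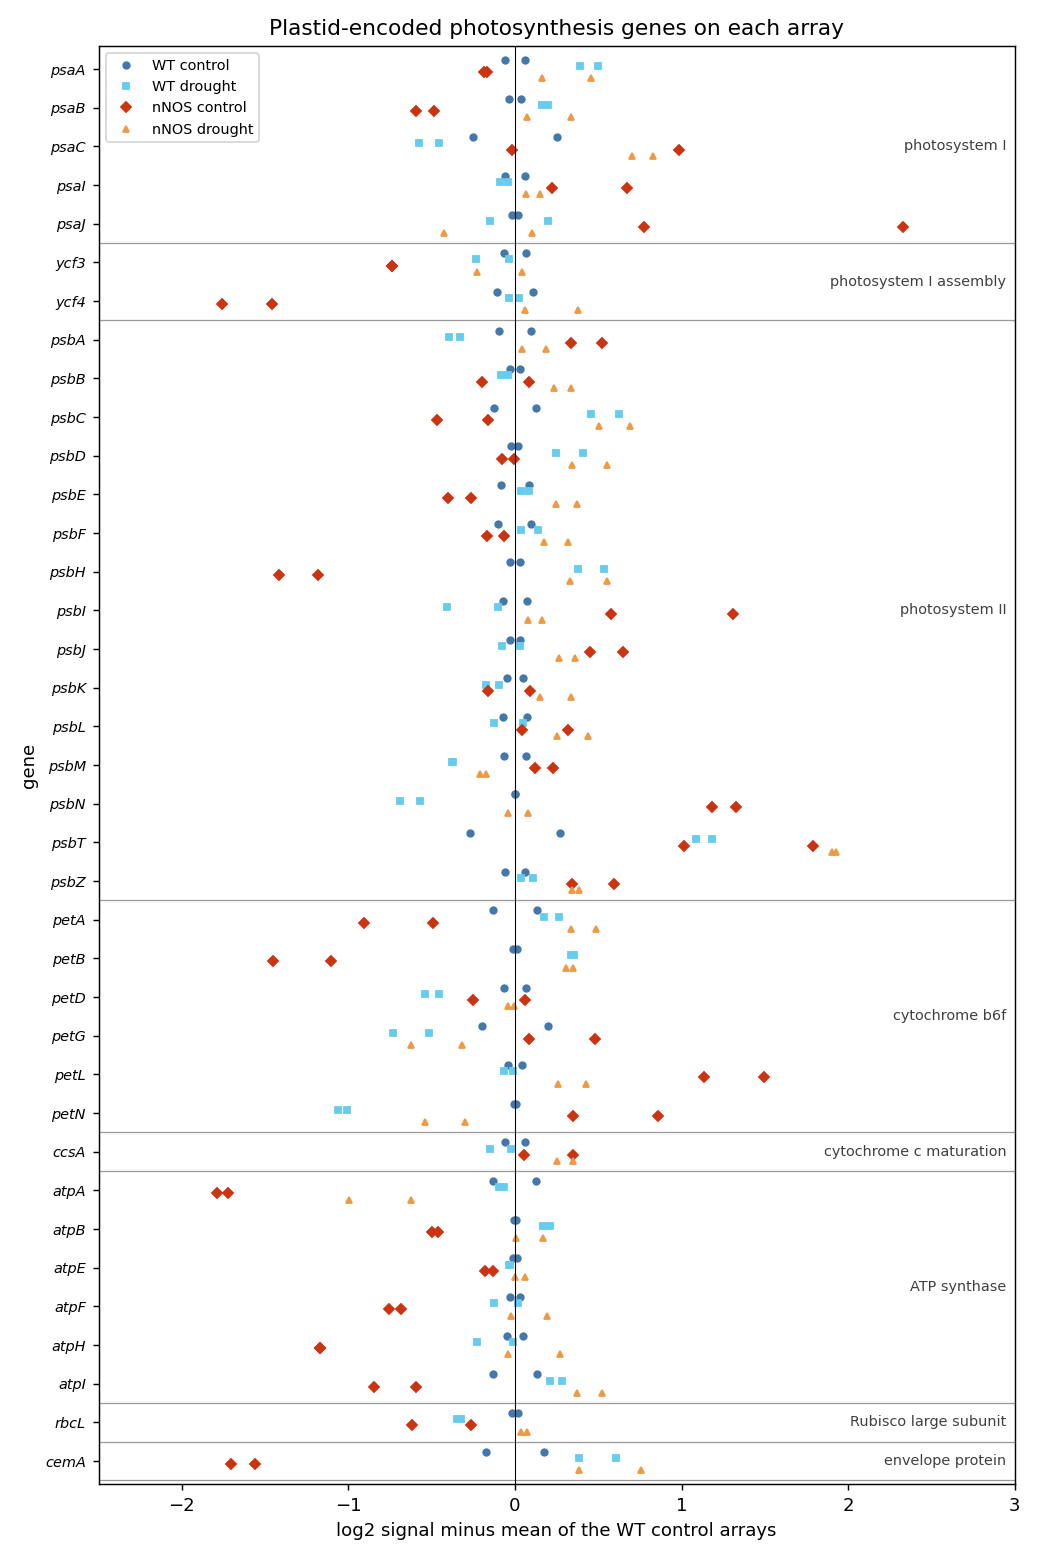
Log2 signal of each of the 37 genes on each of the 8 arrays, minus the mean of the 2 WT control arrays of that gene (x axis, log2 units), with genes ordered by the complex they belong to (y axis). The nNOS control arrays (diamonds) lie apart from the rest for many genes, on the left for *atpA*, *cemA* and *ycf4* and on the right for *psaJ*, *petL* and *psbN*, while the nNOS drought arrays (triangles) lie mostly near the WT arrays.

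Among the 6 ATP synthase genes, 5 were lower in nNOS control and none was higher. *atpA*, which encodes the alpha subunit of the catalytic head, read 7.96 and 8.21 on the WT control arrays, 6.36 and 6.30 on the nNOS control arrays, 8.02 and 7.99 under WT drought and 7.46 and 7.09 under nNOS drought. All nNOS arrays of this gene lay below all WT arrays, and the nNOS control arrays lay lowest. The difference in control plants was -1.76 on the log2 scale (SE 0.138, adjusted p = 3.93e-05), or 3.38-fold lower. *atpH*, for subunit c of the membrane ring, read 9.92 and 9.82 in WT control and 8.70 on both nNOS control arrays, a difference of -1.17 (SE 0.128, adjusted p = 0.000153). Its drought values, 9.64 and 9.86 in the WT and 9.83 and 10.14 in nNOS plants, overlapped between genotypes.

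*atpI* (subunit a of the membrane part) fell from 5.70 and 5.97 to 4.99 and 5.24, and *atpF* (subunit b) from 8.04 and 8.11 to 7.32 and 7.39, and each differed by -0.72 (adjusted p = 0.00209 and 0.00102). *atpB*, for the beta subunit that carries the catalytic sites, differed less, with 12.87 and 12.86 in WT control and 12.40 and 12.37 in nNOS control (-0.48, SE 0.103, adjusted p = 0.0054). *atpE*, for the epsilon subunit, shares 4 bases with *atpB* in the RefSeq annotation and differed by -0.16 with a 95% interval of -0.37 to 0.06.

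Of the 6 cytochrome b6f genes, 2 were lower and 2 were higher in nNOS control. *petB*, for cytochrome b6, read 11.26 and 11.24 in WT control and 10.14 and 9.79 in nNOS control, a difference of -1.28 (SE 0.123, adjusted p = 9.14e-05). *petA*, for cytochrome f, read 11.14 and 11.40 against 10.36 and 10.77, a difference of -0.70 (SE 0.148, adjusted p = 0.00498). Both cytochrome genes were therefore lower, and their arrays did not overlap between the genotypes, but *petA* did not pass without WT control replicate 2 (adjusted p = 0.0529). *petL*, for a small subunit of the complex, went the other way, from 7.29 and 7.38 to 8.47 and 8.83 (1.32, SE 0.131, adjusted p = 0.000101). *petN*, for another small subunit, read 8.07 and 8.09 in WT control and 8.43 and 8.94 in nNOS control (0.60, SE 0.156, adjusted p = 0.0137), and did not pass without nNOS control replicate 2 or either WT control array (adjusted p up to 0.076). *petD* (subunit IV) read 3.50 and 3.37 in WT control and 3.18 and 3.49 in nNOS control, which overlap (-0.10, SE 0.123, adjusted p = 0.581). *petG*, for another small subunit, differed by 0.28 and did not pass either (adjusted p = 0.247). Both were dim, at percentiles 28.1 and 19.3 of the mean signals of all probe sets, and how far they lie above background was not measured.

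Of the 5 photosystem I subunit genes, 1 was lower and 2 were higher in nNOS control. *psaB*, which with *psaA* encodes the protein pair that binds the primary electron donor, read 11.99 and 11.92 in WT control and 11.47 and 11.36 in nNOS control (-0.54, SE 0.116, adjusted p = 0.0053). *psaA* read 4.83 and 4.95 against 4.71 and 4.73, and its difference was -0.18 with a 95% interval of -0.44 to 0.09 (SE 0.121, adjusted p = 0.294). The *psaA* arrays were thus just separated, without passing the test. *psaJ*, for a small membrane subunit, had the largest positive difference of all members, 1.55 (SE 0.375, adjusted p = 0.00998), but its nNOS control arrays read 9.48 and 11.04, against 8.72 and 8.69 in WT control. The 2 nNOS control arrays of *psaJ* thus differed by about as much as the genotypes did, and the difference was 0.77 without nNOS control replicate 2 and 2.33 without replicate 1. With a trend and robust setting of the same test, the adjusted p of *psaJ* was 0.115. Without WT control replicate 2 it was 0.0585. *psaI*, for another small subunit, was 0.45 higher (adjusted p = 0.0335), and did not pass when any array other than nNOS control replicate 1 was left out (adjusted p up to 0.192). *psaC*, for the subunit that holds the terminal iron-sulphur clusters, read 8.06 and 9.07 in nNOS control and 7.83 and 8.34 in WT control, and did not pass (adjusted p = 0.192).

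The assembly factors of photosystem I were both lower. *ycf4* read 7.78 and 7.56 in WT control and 6.21 and 5.91 in nNOS control, a difference of -1.61 (SE 0.143, adjusted p = 6.89e-05), or 3.05-fold. *ycf3* read 7.78 and 7.65 against 6.98 on both nNOS control arrays (-0.74, adjusted p = 0.00148). *cemA*, the envelope protein gene that lies next to *ycf4*, read 8.41 and 8.76 in WT control and 7.02 and 6.88 in nNOS control (-1.64, SE 0.157, adjusted p = 9.14e-05). These 3 genes had no overlap between the genotypes in control plants.

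Photosystem II showed more genes that were higher, with 6 higher, 2 lower and 7 of 15 that did not pass. *psbT*, for a small subunit, read 4.04 and 4.58 in WT control and 5.32 and 6.10 in nNOS control, and *psbN*, whose product is needed to assemble the complex in tobacco, read 9.09 on both WT control arrays and 10.27 and 10.42 in nNOS control. The differences were 1.40 (SE 0.227, adjusted p = 0.00117) and 1.25 (SE 0.108, adjusted p = 6.01e-05). The small subunit genes *psbI*, *psbJ* and *psbZ* were higher by 0.94, 0.55 and 0.47, and *psbA*, which encodes the D1 reaction centre protein, by 0.43 (SE 0.118, adjusted p = 0.0188), from 10.86 and 11.06 to 11.30 and 11.48. *psbA* and *psbZ* did not pass without nNOS control replicate 2 or WT control replicate 1 (adjusted p up to 0.129). *psbH*, for a small phosphoprotein of the complex, went down from 8.34 and 8.40 to 7.18 and 6.95 (-1.30, SE 0.124, adjusted p = 9.14e-05). *psbE*, for a subunit of cytochrome b559, was lower by a small amount (-0.33, adjusted p = 0.0424), and did not pass when any array other than nNOS control replicate 2 was left out (adjusted p up to 0.23). *psbD*, for the other reaction centre protein D2, read 7.77 and 7.82 in WT control and 7.79 and 7.71 in nNOS control, a difference of -0.04 with a 95% interval of -0.29 to 0.21. *psbB*, for the inner antenna protein CP47, read 7.76 and 7.81 against 7.58 and 7.87, a difference of -0.06 with an interval of -0.32 to 0.20. The arrays of both genes overlapped between the genotypes. *psbC*, for the inner antenna protein CP43, read 10.71 and 10.46 against 10.43 and 10.12, and its difference was -0.31 (SE 0.14, adjusted p = 0.114).

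*rbcL* read 10.36 and 10.32 in WT control and 9.72 and 10.08 in nNOS control, a difference of -0.44 (SE 0.124, adjusted p = 0.0203). *ccsA* differed by 0.20 with a 95% interval of -0.07 to 0.48. The difference of *rbcL* did not pass without nNOS control replicate 1 or without either WT control array (adjusted p up to 0.0883).

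**Figure D2:**
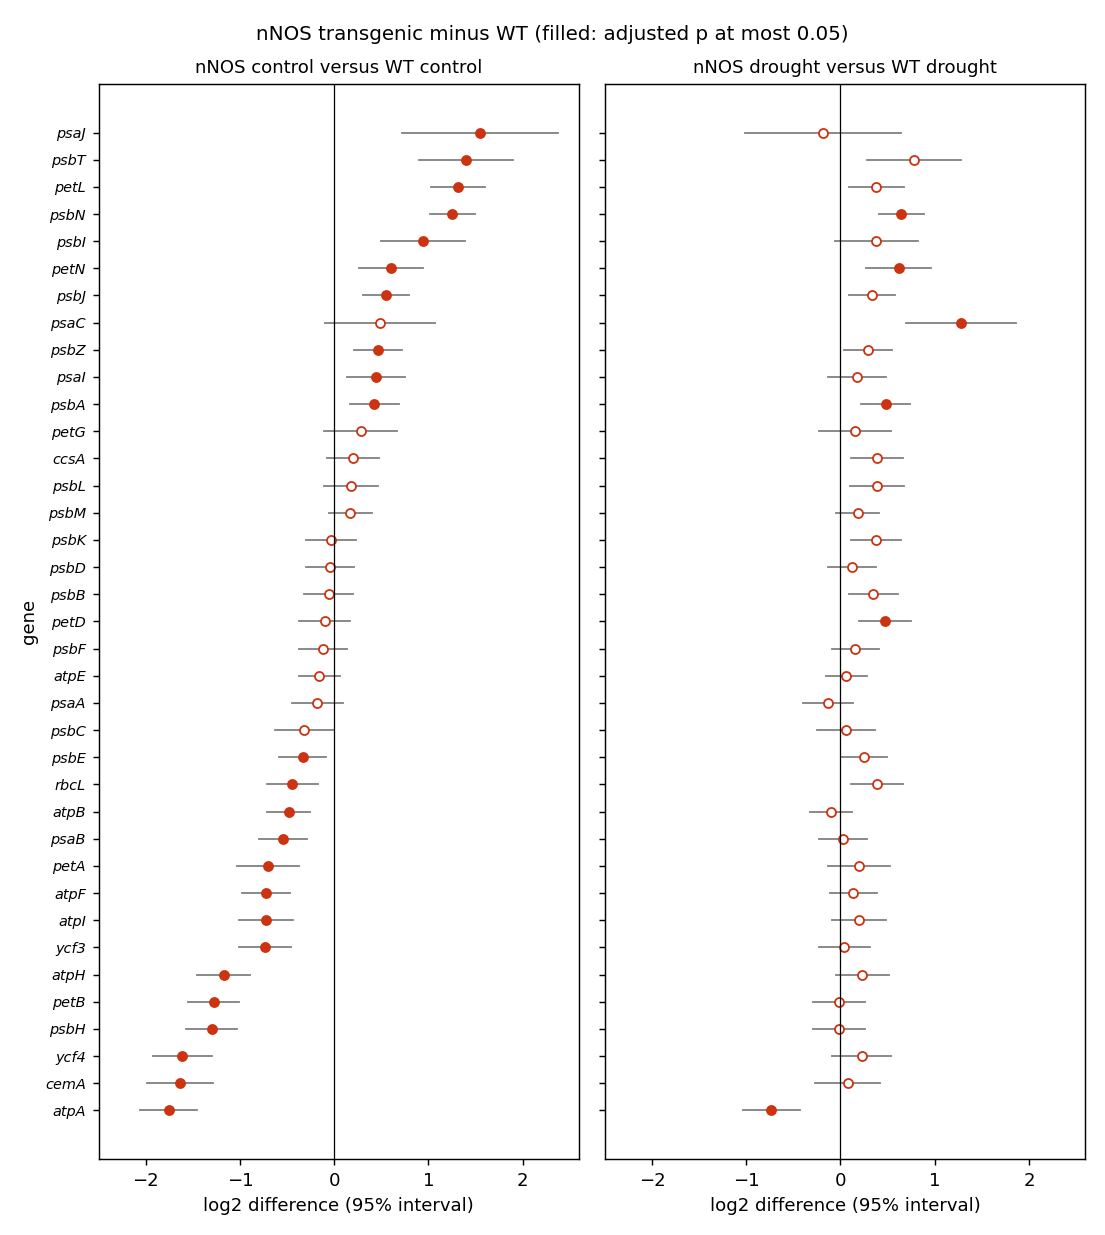
Log2 difference between nNOS transgenic and WT plants for each of the 37 genes (x axis, log2 units, points with 95% intervals) in control plants (left) and under drought (right), with genes in the order of the control difference and filled points at an adjusted p of at most 0.05. In control plants the differences run from -1.76 for *atpA* to 1.55 for *psaJ*, and under drought they run from -0.73 for *atpA* to 1.28 for *psaC*, with 6 filled points.

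Genes that are transcribed together did not move as a block. In the unit that runs from *psbB* through *psbT* and *psbH* to *petB* and *petD*, the differences between nNOS control and WT control were -0.06, 1.40, -1.30, -1.28 and -0.10 in map order. *psbN*, which lies between *psbT* and *psbH* on the opposite strand, had a difference of 1.25. The arrays label RNA of 1 strand, so *psbN* and the genes opposite to it are read separately. In the unit *psaI*, *ycf4*, *cemA* and *petA*, the first gene was higher by 0.45 and the others were lower by 1.61, 1.64 and 0.70. The unit *atpI*, *atpH*, *atpF* and *atpA* was lower throughout, at -0.72, -1.17, -0.72 and -1.76. In *petL*, *petG* and *psaJ* the differences were 1.32, 0.28 and 1.55. In *psbE*, *psbF*, *psbL* and *psbJ*, a unit with no called member, they were -0.33, -0.12, 0.18 and 0.55. Further units are not set out here. Within 1 unit, *psbT* and *psbH*, *psaI* and *ycf4*, and *psbE* and *psbJ* thus passed the test in opposite directions. By contrast, *psbH* and *petB*, and *ycf4* and *cemA*, had like values.

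**Figure D3:**
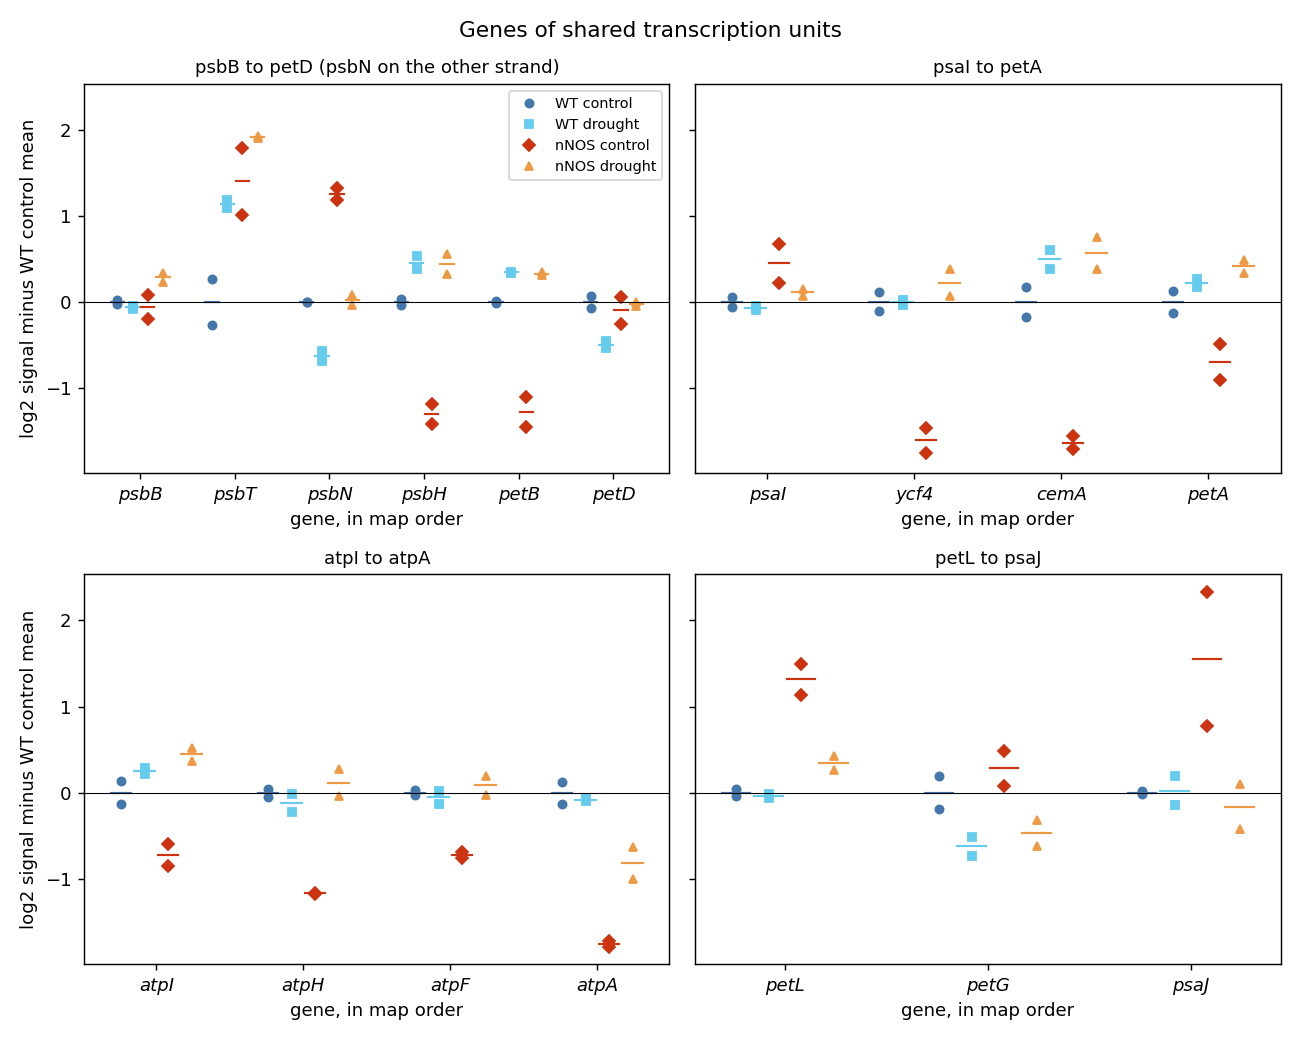
Log2 signal on each array minus the WT control mean (y axis, log2 units) for the genes of 4 shared transcription units in map order (x axis), with short lines at the group means of 2 arrays. In nNOS control, *psbT* lies above and *psbH* and *petB* lie below the WT control mean within 1 unit, *psaI* and *ycf4* part in the same way, and the genes from *atpI* to *atpA* lie below it together.

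Differences in control plants went with the length of the gene. Of the 18 members shorter than the median length of 399 bases, 9 were higher and 3 were lower, with a median difference of 0.46, and of the 19 members of at least that length, 1 was higher and 11 were lower, with a median of -0.48. The higher one among the longer genes was *psbA*. Across the 37 genes, the difference correlated with log2 gene length at r = -0.59 (Spearman -0.65), and with the mean signal at r = -0.03. The genes share the same 8 arrays, and many share a precursor RNA, so they are not independent points, and lengths include introns. The correlation was -0.17 over the 32 other plastid genes and -0.23 over 13367 nuclear probe sets with 1 gene. The signal of the 3' minus the 5' probe set of the control gene GAPDH depends on how much of a transcript was labelled. It was averaged over a pair named AFFX-Athal and a pair named AFFX-r2-At, which had opposite signs on every array. On nNOS control replicate 1, the AFFX-Athal pair read 10.43 (3') and 9.38 (5'), and the other pair 10.81 and 11.12. The average was 0.374 and 0.680 on the nNOS control arrays and 0.594 and 0.485 on the WT control arrays. Under drought the average was 0.0975 to 0.282. In the drought comparisons, the correlation with length was 0.25 in the WT and 0.54 in nNOS plants, and in nNOS drought versus WT drought it was -0.39. The value of 0.54 rests on the same nNOS control arrays as the -0.59 of control plants, which enter it with the opposite sign. Over the nuclear probe sets the same correlations were 0.25, 0.24 and -0.25, so that in the WT the members and the nuclear genes had the same value at this precision. The part of labelling in these values was not tested.

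**Figure D4:**
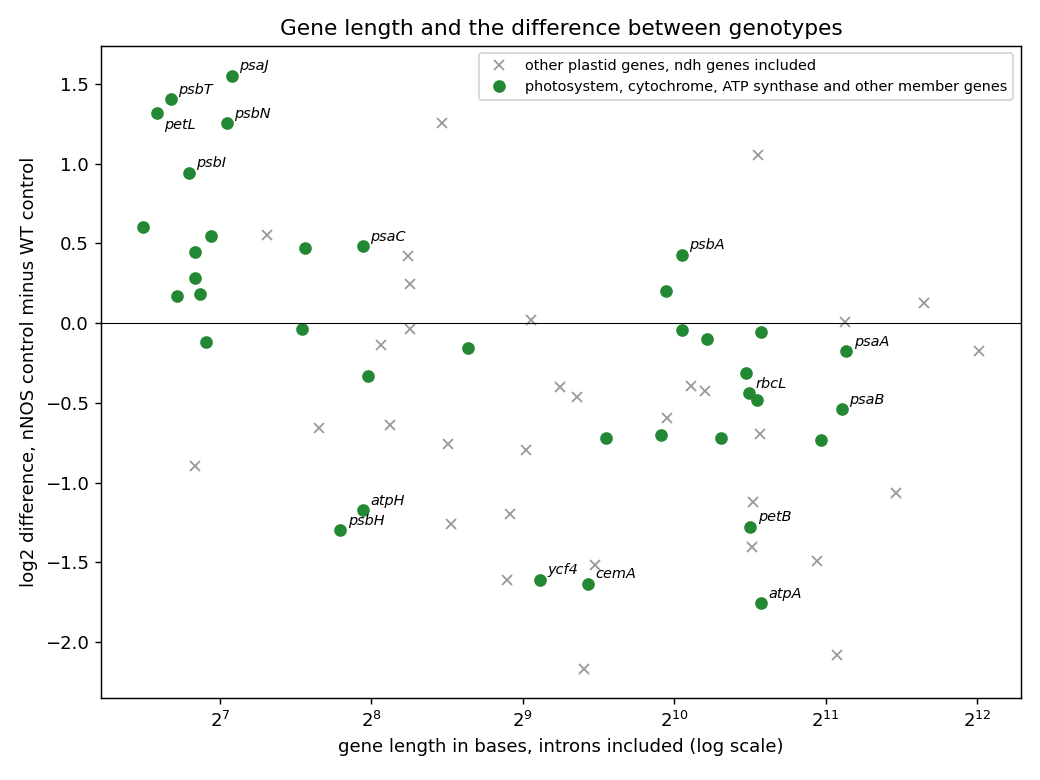
Log2 difference between nNOS control and WT control (y axis) against gene length in bases (x axis, log scale), for the 37 genes (circles) and the 32 other plastid genes (crosses). The shortest members, such as *petL*, *psbT* and *psaJ*, lie above 0 and most members of 399 bases or more lie below it. Most of the other plastid genes lie below 0, but *rpl20*, *rpl32*, *rps14* and *rps18*, all shorter than 399 bases, lie above it.

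Most of the other plastid genes were lower in nNOS control. Of the 22 other plastid genes, which encode ribosomal proteins, RNA polymerase subunits and further proteins, 14 were lower and 3 higher, with a median of -0.61, and of the 10 *ndh* genes 6 were lower and 1 higher, with a median of -0.59. Relative to the 22 other plastid genes, the median of the photosynthesis genes in this comparison was 0.45, and the differences of *atpB*, *psaB*, *psbE* and *rbcL*, which were negative relative to all probe sets, became 0.07, 0.01, 0.22 and 0.11. The difference between these gene sets was not tested. Nuclear genes of the same complexes and of Rubisco activation were also listed. Of 60, 11 had an annotated probe set, and among these 2 were higher and 0 lower, namely the photosystem II antenna genes *LHCB4.1* (0.35) and *LHCB4.2* (0.34), with a median of 0.05 over the 11. This is 18.2% higher, against 13% of all probe sets. Their range was -0.30 to 0.35. Of the nuclear RNA polymerases and sigma factors that transcribe plastid genes, 1 of 8 had an annotated probe set. This was *RPOTmp*, a phage-type polymerase of mitochondria and plastids, which was 0.56 higher in nNOS control (adjusted p = 0.0162). None of the 10 listed RNA maturation factors had one.

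**Figure D5:**
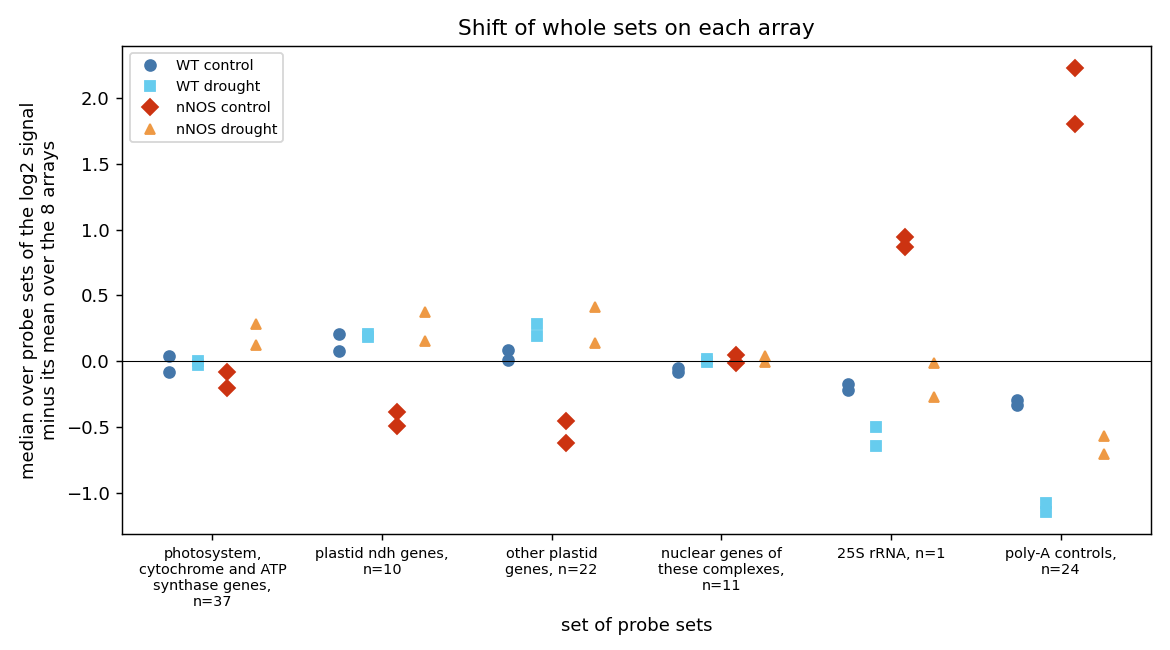
Shift of 6 sets of probe sets on each array (y axis, the median over the set of the log2 signal minus its mean over the 8 arrays), for the 37 genes, the *ndh* genes, the other plastid genes, nuclear genes of the same complexes, 25S rRNA and the poly-A controls (x axis). The nNOS control arrays lie at -0.20 and -0.08 for the 37 genes, at -0.62 and -0.45 for the other plastid genes, at 0.05 and -0.01 for the nuclear genes, and at 1.80 and 2.22 for the poly-A controls.

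Under drought, 6 of the 37 genes differed between the genotypes. In nNOS drought versus WT drought, which uses none of the nNOS control arrays as measurements, 5 members were higher and 1 was lower, against 3.68% and 7% of all probe sets, and the median was 0.20 with 0.04 over all probe sets. For 23 of 37 members both nNOS drought arrays lay above both WT drought arrays, where 36.2% of all probe sets did so, and 1 member lay below (30.2% of all probe sets). Only *psaC* was called, where 0.0176% of all probe sets were called higher and 0.0703% lower. *psaC* read 7.62 and 7.50 in WT drought and 8.78 and 8.91 in nNOS drought, a difference of 1.28 (SE 0.264, adjusted p = 0.0176). Both nNOS drought arrays of *psaC* were thus far above the WT drought arrays, and the WT control arrays, at 7.83 and 8.34, lay between them. Its adjusted p rose to as much as 0.138 when 1 of the 4 drought arrays was left out, while the difference stayed between 1.22 and 1.35.

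The other higher members under drought were *psbN* (0.65, adjusted p = 0.0103), *petN* (0.62, adjusted p = 0.0335), *psbA* (0.48, adjusted p = 0.0313) and *petD* (0.47, adjusted p = 0.0369). *psbN* read 8.41 and 8.52 in WT drought and 9.05 and 9.17 in nNOS drought, *petN* 7.07 and 7.01 against 7.54 and 7.78, and *psbA* 10.56 and 10.63 against 11.01 and 11.15. *psbN*, *petN* and *psbA* were therefore higher in nNOS plants in both water regimes. *atpA* was lower in both, by 1.76 in control and by 0.73 under drought (SE 0.138, adjusted p = 0.0138). *psbT* had a difference of 0.78 and just missed the threshold (adjusted p = 0.0524). The count of 5 higher members was 13 in a fit without both nNOS control arrays, or without either of them, 3 without either WT control array, 1 without nNOS drought replicate 1 and 0 without nNOS drought replicate 2 or either WT drought array. With arrays centred on their median, which moved every probe set by 0.096 in this comparison, 13 were higher and 1 lower. The shares of all probe sets at these other settings are not given. These counts therefore do not set the members apart from other probe sets. The single lower member, *atpA*, did not pass without nNOS drought replicate 2 or either WT drought array (adjusted p up to 0.148).

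Most members that were lower in watered nNOS plants did not pass under drought. Of the 14 members that were lower in nNOS control, 1 was lower in nNOS drought versus WT drought (*atpA*), and their median there was 0.11. The called members *cemA*, *ycf4*, *psbH*, *petB* and *atpH* had differences of 0.08, 0.22, -0.02, -0.02 and 0.23 under drought, with 95% intervals that all included 0. Of the 10 members that were higher in nNOS control, 3 were higher under drought and 9 had a positive difference, with a median of 0.38. Positive differences were also found for 10 of the 14 lower members and for 31 of all 37, where 12605 of all 22746 probe sets had one. The direction under drought was thus shared by members of both kinds. The 2 comparisons share no array.

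In WT plants, 9 of the 37 genes differed after drought. Compared with WT control, 4 members were higher and 5 lower in WT drought, or 10.8% and 13.5%, against 5.97% and 4.92% of all probe sets, with a median of -0.04 that equals the median of all probe sets at this precision. *psbT* rose from 4.04 and 4.58 to 5.39 and 5.49 (1.14, SE 0.227, adjusted p = 0.0125) and was the only member called higher (0.33% of all probe sets). *petN* fell from 8.07 and 8.09 to 7.07 and 7.01 (-1.04, SE 0.156, adjusted p = 0.00322) and was the only one called lower (0.347%). *psbC* rose from 10.71 and 10.46 to 11.04 and 11.21 (0.54, adjusted p = 0.034), and *psaA* from 4.83 and 4.95 to 5.39 and 5.28 (0.45, adjusted p = 0.0395). *psbH* was higher by 0.46, and *psbN*, *petG*, *petD* and *psbM* were lower by 0.63, 0.62, 0.50 and 0.37. Both WT drought arrays lay above both WT control arrays for 11 members and below them for 12, with 28.6% and 35.6% of all probe sets separated in this way. No ATP synthase gene passed, and their differences lay between -0.12 and 0.25. The counts rest on single arrays: without 1 of the 4 WT arrays, 0 or 1 member was higher and 1 or 2 were lower. *psbT* was not called without WT control replicate 1 or either WT drought array (adjusted p up to 0.106). Without both nNOS control arrays in the fit, or without either, 8 were lower, and without either nNOS drought array 3 were. With arrays centred on their median, which moved every probe set by -0.034 in this comparison, 2 members were higher and 5 lower. The shares of all probe sets at these other settings are not given beside the counts.

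In nNOS drought versus nNOS control, 18 members were higher and 7 lower, against 14% and 10.8% of all probe sets, with a median of 0.36. This comparison uses the same nNOS control arrays as the first one, so that high or low values on them enter both with opposite signs, and all 14 genes with lower signal than the WT in watered nNOS plants had higher signal there after drought. Calls were made for 7 higher members (0.809% of all probe sets) and 3 lower ones (1.16%). The split over all probe sets, 184 higher to 263 lower, was 132 to 358 after cyclic loess normalization, which gave 7 and 4 members. *cemA* rose most, from 7.02 and 6.88 to 8.97 and 9.34 (2.21, SE 0.157, adjusted p = 8.9e-06), or 4.61-fold. *ycf4* rose by 1.83, *psbH* by 1.74, *petB* by 1.61, *atpH* by 1.29, *atpI* by 1.17 and *petA* by 1.11. *psaJ*, *psbN* and *petN* fell by 1.71, 1.24 and 1.03. The arrays of the 2 groups were separated upward for 22 members and downward for 10, and for 29.7% and 29.8% of all probe sets. On the arrays, *psbN* went from 10.27 and 10.42 in nNOS control to 9.05 and 9.17 in nNOS drought, close to the 9.09 of WT control. Without nNOS control replicate 2 or nNOS drought replicate 1, 1 member was called lower, and without nNOS control replicate 1, 5 were. The count of 7 lower members was 4 without nNOS control replicate 2 or without either nNOS drought array.

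The 22 other plastid genes had a median drought difference of 0.83 in nNOS plants. Centring the arrays on those genes moves every probe set by -0.84, which puts the median of the members at -0.48 in place of 0.36. Of the 18 higher members, 9 kept a positive difference on that scale, *cemA*, *ycf4*, *psbH* and *petB* among them, while *atpB*, *atpF*, *psaA*, *psaB*, *psbD*, *psbE*, *psbF*, *rbcL* and *ycf3* had negative ones.

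Between drought and control, 7 members differed in the same direction in both genotypes, by comparisons that share no array. *psaA*, *psbC* and *psbH* were higher in both, and *petG*, *petN*, *psbM* and *psbN* were lower in both, where 3.2% of all probe sets were higher and 2.56% were lower in both. In the WT only *petN* of these passed whichever array was left out. The adjusted p of the others rose there to 0.269 for *psaA*, 0.248 for *psbM* and 0.0888 for *psbN* without WT drought replicate 1, to 0.278 for *petG* without the same array, and to 0.206 for *psbC* and 0.24 for *psbH* without WT drought replicate 2. *psbH* and *psbM* also did not pass in the WT with the replicate number as a block. *petN*, for example, had drought differences of -1.04 in WT and -1.03 in nNOS plants, and *psaA* rose by 0.45 and 0.49. *psbD* and *psbC*, which overlap by 53 bases and are transcribed together, rose by 0.49 and 0.91 in nNOS plants, and had differences of 0.33 and 0.54 in the WT, of which only the latter passed.

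Whether nNOS and WT plants responded differently to drought was tested as an interaction. It is the same quantity as the genotype difference under drought minus that in control plants. The response of nNOS plants was more positive for 11 members and more negative for 1, against 1.89% and 1.75% of all probe sets, and 6 of the 11 were called (0.312%), with none called lower (0.435%). Over all probe sets 71 were called higher and 99 lower, and 52 and 124 after cyclic loess normalization, which gave 5 and 1 members. The 11 were *ycf4* (1.83, SE 0.202, adjusted p = 0.00188), *cemA* (1.71, SE 0.222, adjusted p = 0.00461), *atpH* (1.40, adjusted p = 0.0045), *psbH* (1.28), *petB* (1.26), *atpA* (1.02), *atpI* (0.92), *petA* (0.89), *atpF* (0.86), *rbcL* (0.83) and *ycf3* (0.78). All were among the 14 members that were lower in watered nNOS plants, a comparison with which the interaction shares 4 arrays. *petL* had the negative difference (-0.94, SE 0.185, adjusted p = 0.0227). For *psaJ* it was -1.74 and did not pass (adjusted p = 0.0966), and for *psbT*, whose drought differences were 1.14 in the WT and 0.51 in nNOS plants, it was -0.62 (adjusted p = 0.325). The count of 11 was 5 without any 1 of the 4 WT arrays and 6 without either nNOS drought array, and the count of negative ones was 5 without nNOS control replicate 1. Relative to the other plastid genes the median interaction of the members changed from 0.37 to -0.03. The poly-A controls also differed in this test, by -1.81, and 24 of 24 were called.

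The spread between replicates was largest in nNOS control. The median SD over the 37 genes (n = 2 arrays) was 0.178 in nNOS control, 0.106 in nNOS drought, 0.0847 in WT control and 0.0668 in WT drought, where the medians over all probe sets were 0.119, 0.0829, 0.0811 and 0.0599. Replicate 1 read lower than replicate 2 for most members in all 4 groups, for 27 of 37 in nNOS control, 34 in nNOS drought, 24 in WT control and 30 in WT drought. The median difference between the replicates was -0.19, -0.14, -0.06 and -0.07 on the log2 scale in the same order.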

How the data were processed

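The authors hybridized leaf RNA to ATH1 arrays and deposited log2 signals that were already normalized. The normalization and the summary of probes are not given in the sources used here, and no genome build is named. The log2 values were used as deposited for 22810 probe sets, of which 64 Affymetrix controls were left out of counts. Genes were named from the platform annotation, which lists 13513 probe sets with 1 gene, and gene lengths came from RefSeq (TAIR10.1), which holds no member gene beyond the 37 measured. The 8 arrays were fitted with 1 mean per group in limma 3.58.1 in R 4.3.3 and moderated with eBayes, and p-values were adjusted by Benjamini-Hochberg over all probe sets. A call needs both an adjusted p no higher than 0.05 and a log2 difference no smaller than 1 in size. No filter was applied to dim probe sets. The fit was also run on simulated arrays with independent noise and 1 SD per probe set for all groups. That run does not cover unequal spread between groups or shifts of whole arrays. The members and gene lists were chosen with earlier results of these data known. Named genes are the called members, core subunits of each complex and the neighbours of called members in their transcription units, and other members were named after their values were seen. Alternatives covered the normalization, array weights, moderation, the arrays in the fit, the replicate block, thresholds and each array in turn. The fit without both nNOS control arrays was added after seeing the data. The 2 arrays per group limit the precision.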

Additional observations from a re-analysis of the deposited data

Results flagged for a closer look

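For 12 genes, the drought response of nNOS plants differed from that of the WT by the test of the difference itself (limma, adjusted p at most 0.05). It was higher on the log2 scale by 1.83 for *ycf4*, 1.71 for *cemA*, 1.40 for *atpH*, 1.28 for *psbH*, 1.26 for *petB*, 1.02 for *atpA*, 0.92 for *atpI*, 0.89 for *petA*, 0.86 for *atpF*, 0.83 for *rbcL* and 0.78 for *ycf3*, and it differed by -0.94 for *petL*. Control probe sets of 3 classes, which measure none of the plant's mRNAs, also differed between nNOS control and WT control. The mean log2 difference was 2.31 for the 24 poly-A controls, 0.95 for the 18 hybridization controls and 1.10 for 25S rRNA. All 3 classes were lower after drought in nNOS plants, with log2 differences of -2.62 for the poly-A controls, -1.03 for the hybridization controls and -1.05 for 25S rRNA. The GAPDH and actin controls, which measure plant mRNAs, differed by means of 0.41 and 0.12 between nNOS control and WT control, and none was called. The part of these control shifts in the gene differences was not tested.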

How the results depend on the processing

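Of 76 gene differences that passed the adjusted p, 25 kept direction and threshold under every alternative run, and over 1293 checks 1086 kept both, 194 lost the threshold and 13 turned. Array weights, trend and robust moderation, the replicate block, the removal of dim probe sets and the fit to the arrays compared leave the difference itself unchanged. So does leaving out an array of a group not compared, and none of these could turn a direction. The adjusted p of 0.01 and the log2 limit of 0.5 were not among the checks of single genes. All that turned did so when arrays were centred on the other plastid genes. In nNOS control versus WT control these were *atpB* (0.069), *psaB* (0.0073), *psbE* (0.22) and *rbcL* (0.11). In nNOS drought versus nNOS control they were *atpB* (-0.27), *atpF* (-0.037), *psaA* (-0.35), *psaB* (-0.093), *psbD* (-0.35), *psbE* (-0.20), *psbF* (-0.48), *rbcL* (-0.35) and *ycf3* (-0.20). Differences that missed the adjusted p were not followed here. On this scale, which moved the median of all probe sets by 0.55, -0.43, -0.84, 0.14 and -0.41, the member medians were 0.45 in nNOS control versus WT control, -0.47 in WT drought versus WT control, -0.48 in nNOS drought versus nNOS control, 0.34 in nNOS drought versus WT drought and -0.033 in the interaction. The cause was not tested.

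Counts of members moved as follows. The shares of all probe sets at the same settings are not given beside them, here or for the arrays left out below. The same holds for most such counts in the results above. These counts therefore show only how the member counts depend on the setting, and do not set the members apart from other probe sets. In nNOS control versus WT control, 6 were higher at an adjusted p of 0.01, and at a log2 limit of 0.5 there were 7 called higher and 11 called lower. In WT drought versus WT control, at an adjusted p of 0.01, 0 were higher, 0 were called higher and 2 were lower, and at a log2 limit of 0.5 there were 2 called higher and 3 called lower. Higher members there numbered 7 with array weights, 8 with trend and robust moderation and 2 with median centring, and lower ones 3 with quantile or cyclic loess normalization and 8 without both nNOS control arrays. In nNOS drought versus nNOS control, 4 were lower at an adjusted p of 0.01, and a log2 limit of 0.5 called 14 higher and 6 lower. In nNOS drought versus WT drought, 0 were higher, 0 called higher and 0 lower at an adjusted p of 0.01, and a log2 limit of 0.5 called 3 higher and 1 lower. Higher members there numbered 14 with array weights, 16 with trend and robust moderation, 13 with median centring, with a fit to the 4 arrays compared or without both nNOS control arrays, and 8 with the replicate block. In the interaction, 5 were higher and 0 lower at an adjusted p of 0.01, 11 were called higher and 1 called lower at a log2 limit of 0.5, 2 were lower with array weights, cyclic loess, trend and robust moderation or without the dimmest probe sets, and 1 was called lower with array weights or cyclic loess.

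With each array left out in turn (the lone array of a group then being assumed to vary like the other groups), the ranges were as follows. In nNOS control versus WT control, 6 to 12 were higher, 11 to 14 lower, 3 to 5 called higher and 6 called lower, with medians of -0.17 to -0.06. In WT drought versus WT control, 0 to 5 were higher, 1 to 8 lower, 0 to 1 called higher and 1 called lower, with medians of -0.07 to 0.02. In nNOS drought versus nNOS control, 14 to 21 were higher, 4 to 9 lower, 7 to 8 called higher and 1 to 5 called lower, with medians of 0.20 to 0.48. In nNOS drought versus WT drought, 0 to 13 were higher, 0 to 1 lower, 0 to 1 called higher and 0 called lower, with medians of 0.13 to 0.27. In the interaction, 5 to 12 were higher, 0 to 5 lower, 5 to 9 called higher and 0 to 3 called lower, with medians of 0.26 to 0.46.

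Replicate numbers were not taken to pair the samples, since deviations of same-numbered arrays correlated at -0.12 to 0.12 over all probe sets. Replicate 1 nevertheless read lower than replicate 2 for 24 to 34 of the 37 members in each group, a shift that these correlations do not measure. With the replicate block, 3 gene differences lost the threshold, namely *psbH* and *psbM* in WT drought versus WT control and *ycf3* in the interaction. Use of another probe set per gene was not run, because each gene has 1. The lack of background measurements limits what can be said of dim genes such as *petG* and *petD*.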
